A study of Mus musculus with 21 samples.

Results

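The 8 heme biosynthesis enzymes examined here are Alas1, Alas2, Alad, Uros, Urod, Cpox, Ppox and Fech, out of 18194 genes measured. They were taken by gene name, with every probe set annotated to one of them alone, which gave 19 of the 45101 probe sets on the arrays. Each gene is given by its probe set of highest mean log2 level over all 21 arrays, and its other probe sets are reported beside it. Expression was measured in 2 populations sorted from bone marrow of C57/BL6 mice. GMP are granulocyte-macrophage progenitors, and LSK cells are the fraction that lacks lineage markers, carries Sca-1 and Kit, and holds stem and multipotent cells. Mice of the Dot groups were Dot1l fl/fl x Mx-Cre, and control mice were Dot1 wt/wt x Mx-Cre, so that both carried the Cre transgene. The design text has both receive PIPC, which deleted both Dot1l alleles in the floxed mice only. Mx-Cre is driven by an interferon-inducible promoter and PIPC is an interferon inducer, so recombination is not limited to blood cells. Dot1l encodes the methyltransferase of histone H3 lysine 79. There were 4 GMP-Dot, 5 GMP-Control, 6 LSK-Dot and 6 LSK-Control arrays, each named by a K number in its title. The labels give no age for the mice. They also do not say whether arrays stand for single mice, so a p-value here weighs a difference only against the scatter among arrays, which may be technical, and precision is limited by how many arrays there are.

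Heme is built in a chain of enzyme steps that starts and ends in mitochondria and passes through the cytosol between. ALAS1 and ALAS2 carry out the first and rate-limiting step, joining glycine and succinyl-CoA to 5-aminolevulinate. ALAS1 serves most tissues and is repressed by heme, whereas ALAS2 belongs to developing red cells and is under the control of GATA1 and iron. In the granulocyte line heme is needed for myeloperoxidase and for the cytochrome of the NADPH oxidase, and in every cell for the respiratory chain.

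Of the 8 enzymes, Alas1 alone passed the test in any comparison. It was higher in GMP than in LSK cells in both genotypes, while no enzyme passed the test for Dot1l deletion in either population. With array quality weights, Uros was called for deletion in LSK cells and Alad for deletion in GMP. Over the alternative settings, calls among all genes ran from 0 to 446 for deletion in LSK cells and from 8 to 7152 in GMP. The count of all genes for these weights alone is not given here. The test was limma's moderated test on log2 intensities over all genes, with a threshold of 0.05 on the Benjamini-Hochberg adjusted p. In GMP-Control against LSK-Control 1 of 8 enzymes was called higher, beside 7.03% of all genes, and 0 were called lower, beside 4.95% of all genes. In GMP-Dot against LSK-Dot 1 of 8 was called higher, beside 0.0495% of all genes, and 0 lower, beside 0.0934%. In GMP-Dot against GMP-Control limma called 0 of 8 in either direction, beside 0.143% of all genes, and 0 of 8 had an unadjusted p under 0.05. In LSK-Dot against LSK-Control it called 0 of 8 beside 0% of all genes, and Uros alone had an unadjusted p under 0.05, as did 1021 genes overall. For the difference between the deletion effects in GMP and in LSK cells it called 0 of 8 beside 0.033% of all genes, with 0 of 8 under an unadjusted 0.05.

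**Figure D1:**
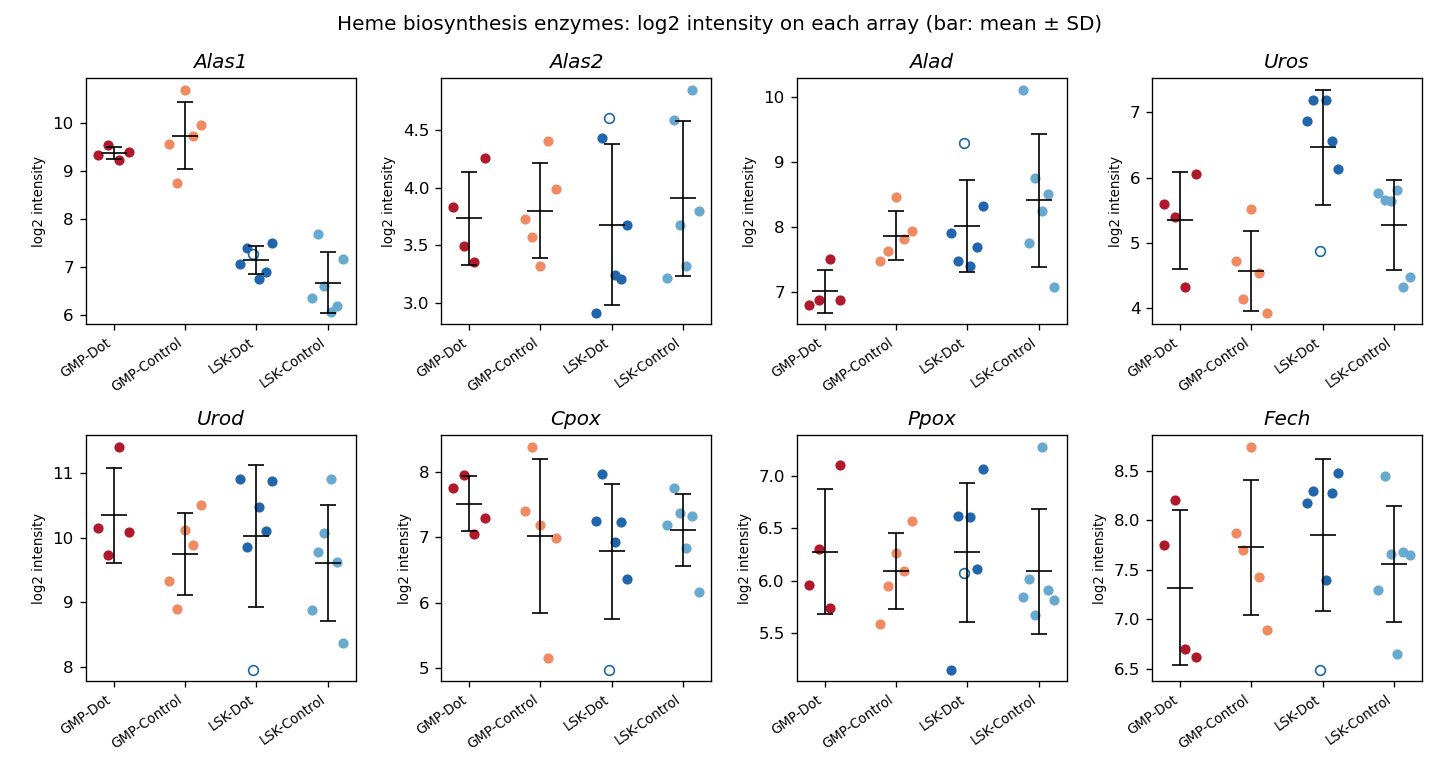
Log2 intensity (vertical axes, a separate scale for each gene) of the 8 enzymes on each of the 21 arrays, with the groups GMP-Dot, GMP-Control, LSK-Dot and LSK-Control from left to right, and the mean ± SD as a black bar. The open circle is LSK-Dot K1272. Alas1 lies between 8.75 and 10.70 on the GMP arrays and between 6.07 and 7.69 on the LSK arrays, and no other enzyme separates the populations.

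The sort was checked on marker genes. The mean log2 level of 6 GMP markers was 12.18 ± 0.24 (SD, n = 4) in GMP-Dot, 12.36 ± 0.27 (n = 5) in GMP-Control, 10.03 ± 1.04 (n = 6) in LSK-Dot and 8.98 ± 0.52 (n = 6) in LSK-Control. The LSK-Dot arrays spanned 8.11 to 10.91 and the LSK-Control arrays 8.40 to 9.66, and 6 of 6 markers rose in GMP-Control against LSK-Control. The mean of 4 stem cell markers was 4.78 ± 0.29, 4.41 ± 0.35, 6.21 ± 1.10 and 7.78 ± 0.11 in the same order. The mean of 8 late neutrophil markers was 7.17 ± 0.41 in GMP-Dot, 7.94 ± 0.15 in GMP-Control, 6.95 ± 0.65 in LSK-Dot and 9.15 ± 1.63 in LSK-Control, where it ran from 7.51 to 11.85. Of these 8, limma called 2 lower in GMP-Control than in LSK-Control, beside 4.95% of all genes. It called 0 of them for deletion in LSK cells, beside 0% of all genes. LSK-Dot K1272 stood apart, with a mean Spearman correlation of 0.684 with the other arrays of its group, against 0.811 to 0.943 for the other 20 arrays. The upper quartile of the log2 values ran from 6.19 to 6.57 on GMP-Control arrays and from 6.60 to 6.76 on LSK-Control arrays. On GMP-Dot arrays it was 6.71 for K1190, 6.77 for K1272, 6.27 for K1359 and 6.31 for K1421. LSK-Dot K1272 had the lowest of all arrays, 6.18. GMP-Dot K1190 and K1272 were unusually close, with a Spearman correlation of 0.982 between them. The 2 probe sets of Dot1l did not separate the genotypes. The brighter one had a log2 level of 6.22 ± 0.42 in GMP-Dot against 6.74 ± 0.16 in GMP-Control, and 6.37 ± 0.35 in LSK-Dot against 6.48 ± 0.30 in LSK-Control. Whether these probe sets lie in the deleted part is not given, so they do not check the labels.

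Alas1, the housekeeping form of the first enzyme, was read by probe set 1424126_at. Its log2 level was 9.34, 9.54, 9.23 and 9.40 on the 4 GMP-Dot arrays and 9.56, 8.75, 10.70, 9.73 and 9.95 on the 5 GMP-Control arrays. On LSK-Dot arrays it had a lowest value of 6.75, a median of 7.17 and a highest of 7.51, and on LSK-Control arrays a lowest of 6.07, a median of 6.48 and a highest of 7.69. Every GMP array lay above every LSK array, and within each population the genotypes overlapped. The highest LSK value, 7.69, was that of LSK-Control K1581, which also had the highest late neutrophil markers, at 11.85, and without it the control populations differed by 3.26. The part of these markers in the result was not tested beyond that. GMP-Control exceeded LSK-Control by 3.06 ± 0.31 on the log2 scale (SE, limma), which is 8.32-fold, with an adjusted p of 3.47e-05 and the gene second of 18194 by p-value. GMP-Dot exceeded LSK-Dot by 2.23 ± 0.33, or 4.68-fold, with an adjusted p of 0.00887 by limma. Adding each array's upper quartile to the fit gave 3.27 and 2.30 for these differences, and leaving out LSK-Dot K1272 gave 3.06 and 2.25, all called. In bulk samples of this kind fewer cells of a type and less RNA per cell cannot be told apart.

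The groups fell in the order GMP-Control (9.74 ± 0.70, SD, n = 5), GMP-Dot (9.38 ± 0.13, n = 4), LSK-Dot (7.15 ± 0.30, n = 6) and LSK-Control (6.68 ± 0.63, n = 6). Neighbours of the same population overlapped, and neither pair passed the test. Alas1 in GMP-Dot against GMP-Control gave a log2 fold change of -0.36 with a 95% interval from -1.08 to 0.36 (adjusted p = 0.594, limma). In LSK-Dot against LSK-Control it was 0.47, with an interval from -0.15 to 1.09 (adjusted p = 0.985, limma). The deletion effect in GMP minus that in LSK cells was -0.83, with an interval from -1.78 to 0.11 (adjusted p = 0.394, limma), so the gap between the populations was not shown to differ by genotype.

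The other Alas1 probe set, 1455282_x_at, followed the first across the 21 arrays with a Pearson correlation of 0.951. Its log2 level averaged 8.76 ± 0.31 in GMP-Dot, 8.81 ± 0.45 in GMP-Control, 6.78 ± 0.22 in LSK-Dot and 6.12 ± 0.53 in LSK-Control. Adjusted over all probe sets, it was higher by 2.70 in GMP-Control than in LSK-Control (adjusted p = 2.15e-05, limma), where 5.24% of all probe sets were called higher. It was higher by 1.98 in GMP-Dot than in LSK-Dot (adjusted p = 0.00603, limma), where 0.0399% were. Both Alas1 probe sets therefore gave the same call in both genotypes. For deletion in LSK cells this probe set gave 0.66, with an interval from 0.16 to 1.16, an unadjusted p of 0.0122 and an adjusted p of 0.73 by limma. For deletion in GMP it gave -0.05, with an interval from -0.64 to 0.53.

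**Figure D2:**
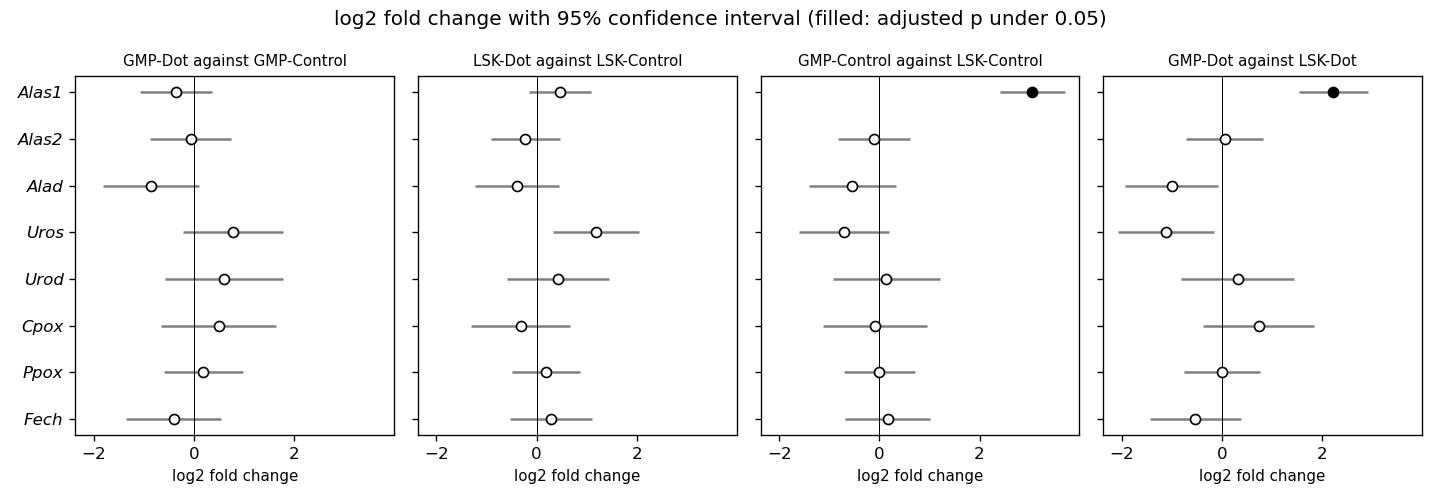
Log2 fold change (horizontal axis) of each enzyme in 4 comparisons, first group minus second, with 95% intervals from limma and filled points where the adjusted p was under 0.05. The filled points are Alas1 at 3.06 in GMP-Control against LSK-Control and at 2.23 in GMP-Dot against LSK-Dot.

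Alas2, the erythroid form, had 1 probe set, 1451675_a_at, and did not separate any groups. Its log2 level averaged 3.73 ± 0.40 in GMP-Dot, 3.80 ± 0.41 in GMP-Control, 3.68 ± 0.70 in LSK-Dot and 3.91 ± 0.67 in LSK-Control. Single arrays ran from 2.92 to 4.85, and all 4 groups overlapped. GMP-Control against LSK-Control gave a log2 fold change of -0.11, with an interval from -0.83 to 0.62. GMP-Dot against GMP-Control gave -0.07 (interval from -0.87 to 0.74) and LSK-Dot against LSK-Control -0.23 (from -0.92 to 0.47). Detection calls were not used here, and whether these levels exceed the background of the probe set was not tested.

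The promoters of the enzymes are shown because Alas1 and Alas2 encode the same reaction and differed here in whether they separated the populations. The 250 bases before each start site that RefSeq lists (GRCm38.p6) were read for 7 members, in 10 windows. Fech was left out of this reading, so nothing is said of its promoter. Both strands were searched for the NRF1 motif, which is GCGC, any base, then TGCGC, found in 3.74% of 32851 promoters. They were also searched for the GATA motif, AGATAA or AGATAG, and TGATAA or TGATAG, found in 26.5%. A match on the opposite strand appears here as its reverse complement. NRF1 is a factor of nuclear genes for mitochondrial proteins, and GATA1 and GATA2 are factors of erythroid and stem cell genes. Before the inner of its 2 listed start sites, Alas1 held 2 NRF1 matches and 0 GATA matches. Before its outer start site Alas1 held 0 matches of either motif. Alas2 held 1 GATA match and 0 NRF1 matches. In the 30-base stretches below, read 5′ to 3′ on the strand of the gene, capitals mark the motif.
Alas1, chr9:106247935-106247964, minus strand: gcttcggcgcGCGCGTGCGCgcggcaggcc
Alas1, chr9:106247906-106247935, minus strand: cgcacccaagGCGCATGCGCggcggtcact
Alas2, chrX:150547319-150547348, plus strand: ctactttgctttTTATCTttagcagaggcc
Further stretches are shown for contrast, since Uros and Cpox also held matches and were not called between the populations.
Uros, chr7:133709323-133709352, minus strand: cggtcacactGCGCCTGCGCgagtcccgcc
Uros, chr7:133702551-133702580, minus strand: tctccctcagccTTATCAgtgacagagggc
Cpox, chr16:58670107-58670136, plus strand: actaaagcgcCTATCTTATCAgtccaagca
The Cpox stretch holds 2 overlapping GATA matches. Uros held 2 GATA matches before one start site, of which the nearer is shown, and 1 NRF1 match before another. Alad, Urod and Ppox held 0 matches of either motif. An E-box (CAGCTG or CACGTG, in 18.2% of promoters) was found before Alad, Uros and Urod, a CACCC box (CCACACCC or CCGCACCC or CCACGCCC, in 9.13%) before Alas1 and a TATA box (TATAAA, in 12.4%) before Alas2. A match describes letters in this window and shows no binding.

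ALAD, the next enzyme, joins molecules of 5-aminolevulinate to porphobilinogen. Its probe set 1424877_a_at had log2 levels of 6.80, 6.87, 7.51 and 6.87 on the GMP-Dot arrays and 7.48, 7.64, 8.46, 7.81 and 7.95 on the GMP-Control arrays. GMP-Dot K1359, at 7.51, lay above the lowest control, and the other 3 GMP-Dot arrays lay below all controls. The log2 fold change was -0.86, with an interval from -1.82 to 0.11 (adjusted p = 0.395, limma). LSK-Dot ran from 7.40 to 9.30 with a median of 7.80, and LSK-Control from 7.08 to 10.12 with a median of 8.38. Their difference was -0.39 (interval from -1.22 to 0.44), and it was -0.65 without LSK-Dot K1272. GMP-Dot against LSK-Dot gave -1.01 with an unadjusted p of 0.0349 by limma and an adjusted p of 0.606. The dimmer Alad probe set, 1457306_at, correlated with the first at only 0.132 over the 21 arrays. It gave a log2 difference of 0.81 in LSK-Dot against LSK-Control, opposite in sign to the brighter one and with an interval from -0.05 to 1.67. The dimmer one averaged only 3.28 in GMP-Dot, 3.30 in GMP-Control, 4.28 in LSK-Dot and 3.47 in LSK-Control. Whether these levels exceed background was not tested.

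UROS closes the linear tetrapyrrole to uroporphyrinogen III. It showed the smallest unadjusted p for deletion among the enzymes. Its probe set 1423482_at had a lowest log2 level of 4.87, a median of 6.71 and a highest of 7.20 on LSK-Dot arrays, against a lowest of 4.32, a median of 5.65 and a highest of 5.81 on LSK-Control arrays. LSK-Dot K1272 held the lowest value of its group, and the other 5 LSK-Dot arrays all lay above every control. The log2 fold change was 1.19 ± 0.41 (SE), with an interval from 0.33 to 2.05, an unadjusted p of 0.00907 and an adjusted p of 0.642 by limma. Without LSK-Dot K1272 it was 1.51 with an adjusted p of 0.206, and with array quality weights 1.55 with an adjusted p of 0.00617.

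In GMP-Dot, Uros read 5.60, 5.40, 4.32 and 6.06, against 4.72, 4.14, 5.52, 4.54 and 3.93 in GMP-Control. These groups overlapped, and the log2 difference was 0.78 with an interval from -0.22 to 1.78 (adjusted p = 0.441, limma). GMP-Control against LSK-Control gave -0.71 (interval from -1.61 to 0.19), and GMP-Dot against LSK-Dot -1.12 (unadjusted p = 0.0244, adjusted p = 0.557, limma). The dimmer probe set of Uros, 1440535_at, ran against the first, with a Pearson correlation of -0.40 over the arrays. It averaged only 3.42 in GMP-Dot, 3.95 in GMP-Control, 3.68 in LSK-Dot and 3.49 in LSK-Control, and whether these levels exceed background was not tested. Its log2 difference in LSK-Dot against LSK-Control was 0.19, with an interval from -0.31 to 0.68.

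UROD removes carboxyl groups from uroporphyrinogen to give coproporphyrinogen. Probe set 1443849_x_at averaged 10.34 ± 0.74 (SD, n = 4) in GMP-Dot, 9.75 ± 0.64 (n = 5) in GMP-Control, 10.03 ± 1.10 (n = 6) in LSK-Dot and 9.60 ± 0.90 (n = 6) in LSK-Control. All groups overlapped, and its spread about the group means, 0.89, was the widest of the 8 enzymes. The median gene had a spread of 0.59. The differences were 0.60 for deletion in GMP (interval from -0.58 to 1.78), 0.43 for deletion in LSK cells (from -0.59 to 1.44) and 0.14 between the control populations (from -0.92 to 1.20). Without LSK-Dot K1272, whose Urod level of 7.95 was the lowest of all arrays, the LSK difference was 0.84. The other Urod probe set, 1417206_at, correlated with this one at 0.630 and was not called either.

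CPOX, in the mitochondrial intermembrane space, makes protoporphyrinogen from coproporphyrinogen. Probe set 1422492_at averaged 7.51 ± 0.41 in GMP-Dot, 7.02 ± 1.18 in GMP-Control, 6.79 ± 1.03 in LSK-Dot and 7.11 ± 0.55 in LSK-Control. Its wide spread came with single low arrays, GMP-Control K1603 at 5.15 and LSK-Dot K1272 at 4.97, while all other arrays lay between 6.16 and 8.39. The differences were 0.49 for deletion in GMP (interval from -0.66 to 1.64), -0.32 for deletion in LSK cells (from -1.31 to 0.67) and -0.08 between the control populations (from -1.12 to 0.96). Without LSK-Dot K1272 the LSK difference was 0.04, of the other sign. The probe sets 1422493_at and 1440747_at correlated with it at 0.548 and 0.307, and neither was called. For deletion in GMP 1440747_at gave 0.60, with an interval from 0.06 to 1.14 (unadjusted p = 0.0314, adjusted p = 0.339, limma). In GMP-Dot against LSK-Dot it gave 0.59 (unadjusted p = 0.0277, adjusted p = 0.656, limma). Its level was only 3.25 in GMP-Dot and 2.65 in GMP-Control, and whether this exceeds background was not tested.

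PPOX oxidises protoporphyrinogen to protoporphyrin, and its probe sets did not tell one story. The brightest, 1416618_at, averaged 6.28 ± 0.60 in GMP-Dot, 6.09 ± 0.36 in GMP-Control, 6.27 ± 0.66 in LSK-Dot and 6.09 ± 0.59 in LSK-Control. The control populations differed by 0.00 on the log2 scale (interval from -0.71 to 0.71), and deletion by 0.18 in GMP (from -0.60 to 0.97) and 0.18 in LSK cells (from -0.50 to 0.86). The next, 1448065_at, read 6.46, 4.75, 6.95 and 5.16 in GMP-Dot and 6.21, 5.94, 6.50, 7.83 and 6.77 in GMP-Control. It ran from 4.48 to 7.96 in LSK-Dot with a median of 5.80, and from 4.52 to 5.82 in LSK-Control with a median of 4.82. All GMP-Control arrays lay above all LSK-Control arrays, whereas the Dot groups spanned both.

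For this probe set GMP-Control exceeded LSK-Control by 1.69 ± 0.53 (SE; adjusted p over all probe sets = 0.0477, limma). In LSK-Dot against LSK-Control it gave 1.15, with an interval from 0.10 to 2.20 (unadjusted p = 0.0333, adjusted p = 0.879, limma), and LSK-Dot K1272 held the highest value, 7.96. The deletion effect in GMP minus that in LSK cells was -1.97, with an interval from -3.58 to -0.36 (unadjusted p = 0.0188, adjusted p = 0.356, limma). It correlated with the brightest Ppox probe set at -0.20 over the 21 arrays, and the third, 1441862_at, at -0.01. The third averaged only 3.26 in GMP-Control and 2.64 in LSK-Control, and whether these levels exceed background was not tested. When each gene was given by the mean of its probe sets, Ppox was higher by 0.77 in GMP-Control than in LSK-Control (adjusted p = 0.0412, limma). Over the alternatives, calls among all genes ran from 454 to 6351 in that comparison, and the count for this setting is not given here. The call for Ppox thus rested on the choice of probe set.

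FECH inserts iron into protoporphyrin and carries an iron-sulphur cluster. Probe set 1418699_s_at averaged 7.32 ± 0.78 in GMP-Dot, 7.73 ± 0.68 in GMP-Control, 7.85 ± 0.77 in LSK-Dot and 7.56 ± 0.59 in LSK-Control. The 4 GMP-Dot arrays split into 7.75 and 8.20 for the close pair K1190 and K1272, and 6.71 and 6.62 for the others. The upper quartiles of these arrays were 6.71 and 6.77, and 6.27 and 6.31, in the same order. The part of this array-wide difference in the Fech levels was not tested. The differences were -0.41 for deletion in GMP (interval from -1.35 to 0.54), 0.29 for deletion in LSK cells (from -0.52 to 1.10) and 0.16 between the control populations (from -0.69 to 1.02). Fech had 4 probe sets, and the other 3 correlated with the first at 0.692 (1418698_a_at), 0.333 (1449181_at) and -0.29 (1427696_at). Between the control populations those 3 gave log2 differences of -0.71, -0.95 and 0.67, none of them called. The last, 1427696_at, averaged only 4.50 in GMP-Control and 3.83 in LSK-Control, and whether these levels exceed background was not tested.

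**Figure D3:**
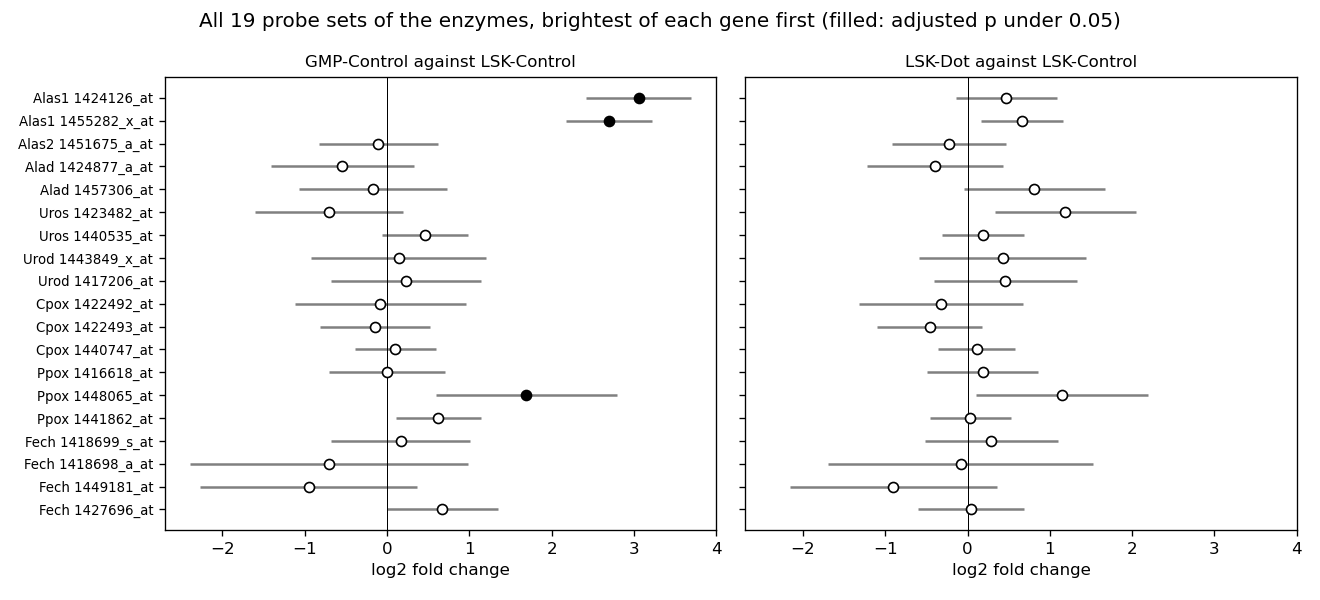
Log2 fold change (horizontal axis) with 95% limma intervals for all 19 probe sets of the enzymes, the brightest of each gene first, in GMP-Control against LSK-Control (left) and LSK-Dot against LSK-Control (right). Filled points passed the threshold over all probe sets. They are both Alas1 probe sets, at 3.06 and 2.70, and Ppox 1448065_at, at 1.69, all in the left panel.

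Over the 8 enzymes the median log2 fold change was -0.04 in GMP-Control against LSK-Control, where that of all genes was 0.29. It was 0.06 for deletion in GMP, where all genes had -0.20, and 0.24 for deletion in LSK cells, where all genes had 0.06. In GMP-Dot against LSK-Dot it was 0.03 beside 0.01 for all genes. The enzymes did not move as a block between arrays either. About their group means, the 28 pairs of enzymes had Pearson correlations from -0.36 to 0.53 over 21 arrays. The highest was that of Cpox and Fech, at 0.53, which was 0.34 without LSK-Dot K1272. That of Alas1 and Fech was then 0.57, against 0.45 with it.

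The genes whose level across the 21 arrays was most like that of Alas1 were Fcgr3 (Pearson 0.910), Afap1 (0.905) and Trem3 (0.886). All of them were higher in GMP-Control than in LSK-Control, by 2.86, 2.66 and 2.62 on the log2 scale. Fcgr3 encodes a low-affinity Fc receptor of myeloid cells and is one of the 6 GMP markers, and Trem3 a myeloid receptor. The points of these correlations share the sorted population. The genes most like the others had lower correlations, for example Anxa5 with Urod (0.853), Ldlrad3 with Cpox (0.876), Kdm4c with Fech (0.846), Coro2b with Alad (0.827), Rpap2 with Uros (0.823), Pirb with Alas2 (0.729) and Pcmt1 with Ppox (0.693).

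**Figure D4:**
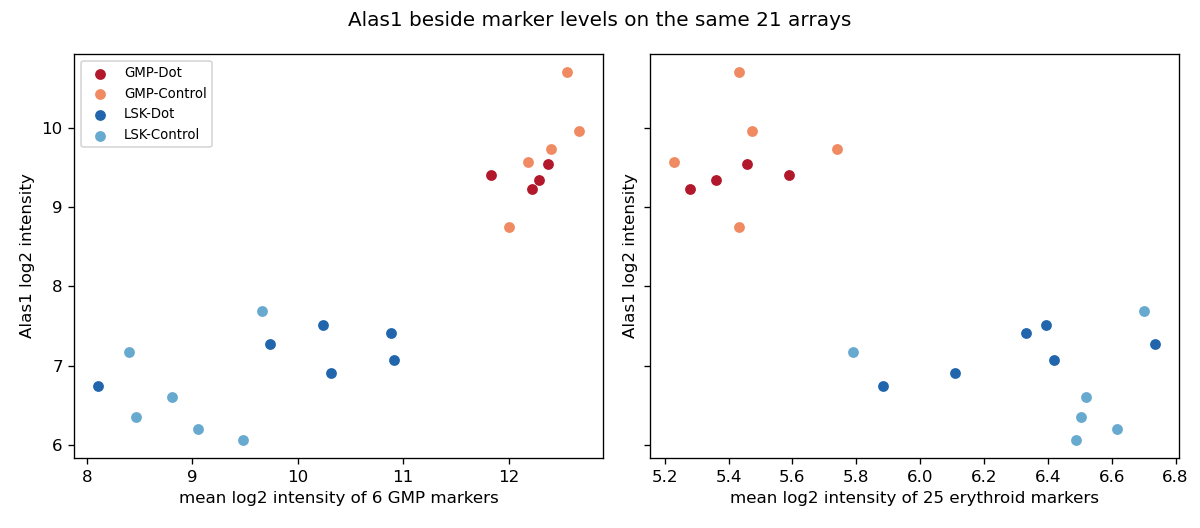
Alas1 log2 intensity (vertical axis) on each of the 21 arrays against the mean log2 intensity of 6 GMP markers (left) and of 25 erythroid markers (right), coloured by group. Arrays of both GMP groups sit at high GMP markers and a low mean of erythroid markers, and within LSK cells the Dot arrays reach GMP marker levels up to 10.91, against 9.66 in LSK-Control.

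Erythroid markers were mixed. The mean log2 level of 25 such genes was 5.42 in GMP-Dot (array range 5.28 to 5.59) and 5.46 in GMP-Control (5.23 to 5.74), against 6.31 in LSK-Dot (5.88 to 6.73) and 6.44 in LSK-Control (5.79 to 6.70). In GMP-Control against LSK-Control 5 of 25 fell and 0 rose, where 4.95% of all genes were called lower and 7.03% higher, and 9 of 25 had a difference above 0. The list median was -0.23 beside 0.29 for all genes. Car2 fell by 5.97 and Car1 by 3.98, both carbonic anhydrases, Hemgn by 5.02, and the stem cell and erythroid factor Tal1 by 2.76 (adjusted p 0.00014, 0.000343, 0.000382 and 0.000651, limma). Aqp1 was the fifth. Without LSK-Dot K1272 limma called 8 lower, beside 5531 of all 18194 genes called either way in that fit. Car1 was also lower by 3.09 in GMP-Dot than in LSK-Dot, the 1 marker called there, beside 0.0934% of all genes called lower. The uncalled members went both ways, and those named next were chosen after their values were seen. Klf1, an erythroid transcription factor, averaged 4.95 ± 0.26 in GMP-Dot, 5.50 ± 0.78 in GMP-Control, 7.43 ± 1.56 in LSK-Dot and 7.19 ± 0.60 in LSK-Control, none of these differences being called. Hba-a2, an alpha globin, averaged 10.63 ± 0.50 in GMP-Dot, 11.03 ± 0.37 in GMP-Control, 10.92 ± 0.29 in LSK-Dot and 10.67 ± 0.54 in LSK-Control. GMP-Control minus LSK-Control was 0.36 for Hba-a2, 0.72 for Slc4a1, the anion exchanger of red cells, and 0.49 for Sptb, their beta spectrin, none of them called. No erythroid marker was called for deletion in either population, beside 0.143% of all genes in GMP and 0% in LSK cells. The part of these markers, and of the GMP markers, in the levels of the enzymes was not tested.

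Of 20 measured genes for heme precursors and iron supply, 3 rose in GMP-Control against LSK-Control and 0 fell, where 7.03% of all genes were called higher and 4.95% lower. The other 17 were not called, 13 of 20 had a difference above 0, and the list median was 0.48 beside 0.29 for all genes. Tspo, an outer mitochondrial membrane protein that binds porphyrins, averaged 10.41 ± 0.76 in GMP-Control and 6.94 ± 1.08 in LSK-Control, a rise of 3.47 (adjusted p = 0.00262, limma). Tmem14c, which carries protoporphyrinogen into the mitochondrial matrix, averaged 9.12 ± 0.48 in GMP-Control and 6.90 ± 0.68 in LSK-Control, a rise of 2.22 (adjusted p = 0.00264, limma). Slc25a39, a mitochondrial glutathione carrier, rose by 1.43 (adjusted p = 0.0289, limma). The control populations did not overlap for Tspo and Tmem14c and overlapped for Slc25a39.

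Alas1 was also called between the Dot groups, and these 3 genes were not. Only 0.0495% of all genes were called higher there and 0.0934% lower. Tspo averaged 8.73 ± 0.42 in GMP-Dot and 8.60 ± 1.66 in LSK-Dot, and Tmem14c 8.47 ± 0.49 in GMP-Dot and 8.19 ± 0.98 in LSK-Dot. The deletion effect in GMP minus that in LSK cells was -3.34 for Tspo and -1.94 for Tmem14c (adjusted p 0.207 and 0.244, limma), so a difference by genotype was not shown. Tspo ran from 8.33 to 9.31 on GMP-Dot arrays and from 9.47 to 11.42 on GMP-Control arrays. GMP-Dot was lower by a mean of 1.68, which was not called (adjusted p = 0.32, limma). How many of all genes separate these groups without overlap is not given here. No gene of this list was called for deletion, beside 0.143% of all genes in GMP and 0% in LSK cells.

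Of 14 genes for heme-carrying proteins and heme attachment, 5 rose in GMP-Control against LSK-Control and 0 fell, beside the same 7.03% and 4.95% of all genes. Of the 14, 10 had a difference above 0, and the list median was 0.67 beside 0.29 for all genes. Mpo, the myeloperoxidase of neutrophil granules and one of the GMP markers, averaged 13.79 ± 0.18 in GMP-Control and 12.56 ± 0.18 in LSK-Control, a rise of 1.23 (adjusted p = 0.000398, limma). Epx, the eosinophil peroxidase, rose by 1.39, Cyba, the light chain of the phagocyte cytochrome, by 1.75, and Cyc1, cytochrome c1 of the respiratory chain, by 1.93. Cyb5b was the fifth, and none of the 14 was called for deletion or between the Dot groups. For deletion 0.143% of all genes were called in GMP and 0% in LSK cells. Between the Dot groups 0.0495% were called higher and 0.0934% lower.

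Of 12 genes of iron-sulphur cluster assembly, Bola3 rose by 1.95 (adjusted p = 0.0177, limma) and the mitochondrial chaperone Hspa9 fell by 0.98 (adjusted p = 0.0495, limma) in GMP-Control against LSK-Control. The list median was 0.72, and 1 of 12 in each direction stands beside 7.03% of all genes called higher and 4.95% lower. Of 18 genes of heme breakdown, export and sensing, 0 rose and 1 fell, a share near the 4.95% of all genes called lower, with a list median of -0.24. That one was Nr1d2, a nuclear receptor that binds heme, which averaged 4.63 ± 0.51 in GMP-Control and 6.63 ± 1.30 in LSK-Control (adjusted p = 0.0443, limma). Hmox1, the inducible heme oxygenase, named after its values were seen, was not called in any comparison. None of the genes in these lists was called for deletion or between the Dot groups. Of all genes, 0.143% were called for deletion in GMP and 0% in LSK cells. Between the Dot groups 0.0495% were called higher and 0.0934% lower. Without LSK-Dot K1272, limma called 4 higher and 1 lower for precursors and iron, 6 and 1 for heme carriers, 2 and 3 for iron-sulphur assembly and 1 and 3 for breakdown, export and sensing. In that fit 5531 of all 18194 genes were called either way, instead of 1279 higher and 901 lower.

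**Figure D5:**
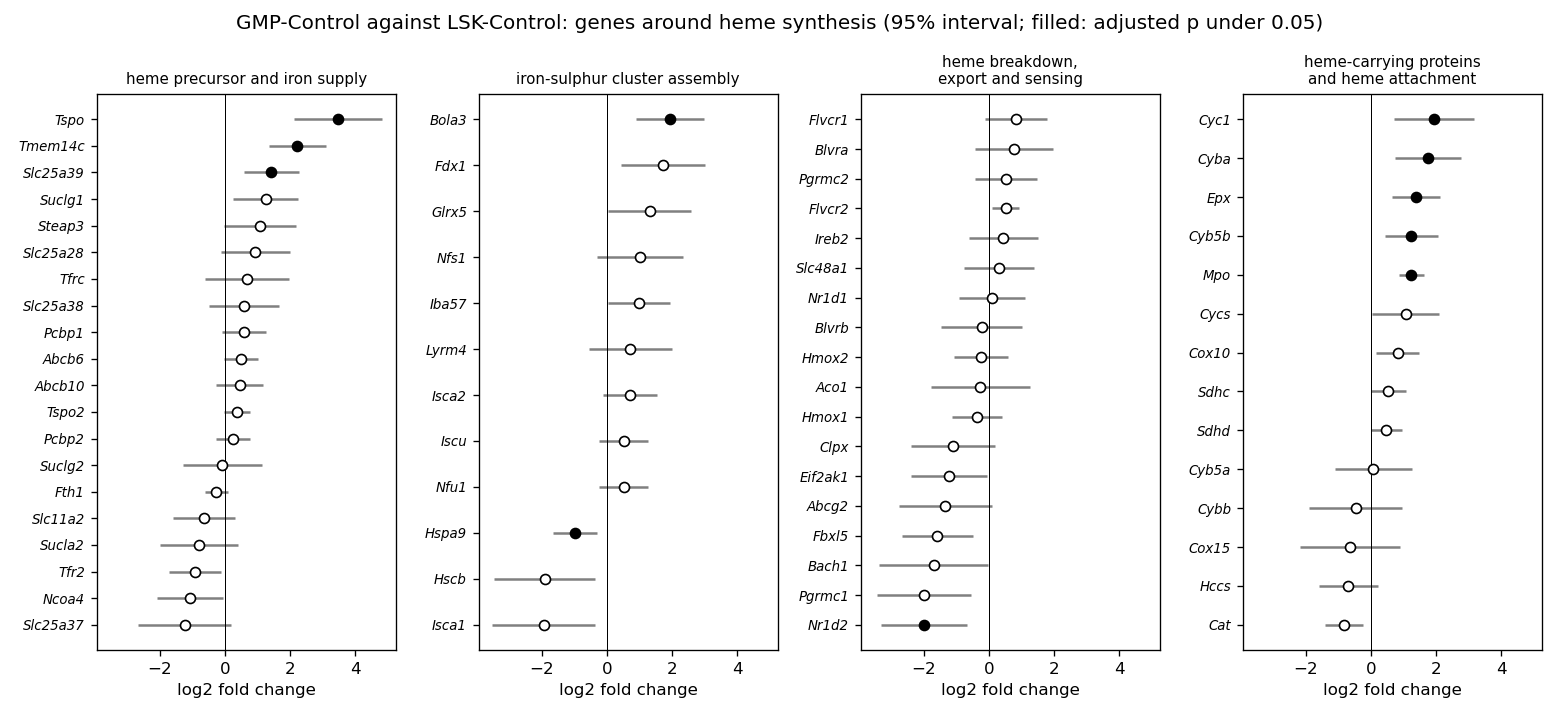
Log2 fold change in GMP-Control against LSK-Control (horizontal axis) with 95% limma intervals for the measured genes of 4 lists around heme synthesis. Filled points passed the threshold, and the highest are Tspo at 3.47 and Tmem14c at 2.22 in the first panel.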

How the data were processed

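Per the labels' protocols, RNA of the sorted cells went through Trizol and an RNeasy column, was turned into biotinylated cRNA and was hybridised to Affymetrix mouse arrays. The values the authors deposited are intensity values on a linear scale, 45101 probe sets on 21 arrays, which the submitters' processing notes credit to RMA without a version. A genome build was not given in the sources used here. Scanner files were not used, so the background correction and the summary over probes were the authors' own.

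Each intensity was put on the log2 scale as it stood, without a pseudocount. Of the probe sets, 34958 had 1 gene symbol, 932 several and 9211 none, and those with 1 symbol covered 18194 genes, of which each was given by its brightest probe set. A RefSeq table of GRCm38.p6 changed 0 symbols. Groups came from the titles and genotypes. limma 3.58.1 in R 4.3.3 fitted 4 group means with Benjamini-Hochberg adjustment at 0.05, over all genes, or over all 45101 probe sets where single probe sets are compared. The fit was tested on simulated data. Promoters came from RefSeq (GRCm38.p6).

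The members and gene lists were chosen with earlier results of these data known. Named are the 8 members, Dot1l, up to 4 genes of each list with the smallest p in a comparison, and the 3 genes most correlated with each member. Aqp1, Cyb5b, Klf1, Hba-a2, Slc4a1, Sptb and Hmox1 were named after their values were seen. The K numbers were checked as a pairing. Deviations from group means correlated from -0.40 to 0.27 over 9 pairs of equal number, with 1 of 9 over 0.1, so the numbers were not treated as pairs. The alternatives were other scalings, filters, probe set choices, variance models, array weights, covariates, blocks and each array left out.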

Additional observations from a re-analysis of the deposited data

Results flagged for a closer look

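Among 76 combinations of probe set and group for the 19 probe sets of the enzymes, 10 held an array far from the others of its group. Chance flags about 1 in 20 such combinations. Of the 10, 4 belong to LSK-Dot K1272, the array that stood apart overall. Its log2 level was low for Urod 1443849_x_at (7.95, next 9.85), Fech 1418698_a_at (3.48, next 7.54) and Fech 1449181_at (3.49, next 5.37), and high for Fech 1427696_at (5.47, next 3.81). In LSK-Control, K1602 was high for Alad 1457306_at (4.45, next 3.50), Ppox 1416618_at (7.28, next 6.02) and Fech 1449181_at (8.01, next 6.22). K1553 was high for Cpox 1422493_at (7.89, next 6.69), and K1603 for Ppox 1448065_at (5.82, next 4.96). GMP-Dot K1359 was high for Alad 1424877_a_at (7.51, next 6.87). None of these arrays stood apart in either probe set of Alas1.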

How the results depend on the processing

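Each of 28 fold changes of the enzymes was recomputed under up to 14 alternatives and with each of 21 arrays left out, 937 values in all. Of these, 889 kept direction and call, 1 lost its call, 5 gained one and 42 turned direction, none of the 42 being of a called result. Alas1 stayed called in GMP-Control against LSK-Control in 35 of 35 settings (log2 2.82 to 3.30). In GMP-Dot against LSK-Dot it was called in 34 of 35. With the K number as a replicate block at a fitted level, over 18 arrays, it was 2.29 with an adjusted p of 0.382 and 0 enzymes were called. A random block changed no call of an enzyme. The K number pairs no arrays within a population. With the mean of probe sets 2 enzymes were called in GMP-Control against LSK-Control. Calls among all genes there ran from 454 to 6351 over the alternatives, and the count for the mean of probe sets alone is not given here. With array weights 1 was called for deletion in GMP (Alad, -1.02), 1 for deletion in LSK cells (Uros) and 3 in GMP-Dot against LSK-Dot. Calls among all genes reached 7152, 446 and 1362 in these comparisons over the alternatives, and the counts for the weights alone are not given here. The cause was not tested.

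The turned directions, all of uncalled differences, were these. For deletion in LSK cells Alad gave 0.21 with the mean of probe sets and 0.81 without probe sets of shared suffix (_s_at, _x_at or _a_at), Fech -0.16 and -0.90, and Cpox 0.040 with array weights. For deletion in GMP, Alas2 gave 0.092 with quantile normalization, 0.039 with array weights and 0.10 with the upper quartile as covariate. Fech gave 0.17 without shared suffixes and 0.0064 with weights, and Ppox -0.37 with the mean of probe sets. In GMP-Control against LSK-Control, Cpox gave 0.11 with quantile normalization, 0.042 with weights and 0.78 with the covariate. Fech gave -0.21 with the mean of probe sets and -0.95 without shared suffixes. Ppox gave -0.065 with median centring, -0.0056 with 16 added and -0.046 with the fitted replicate block, where Urod gave -0.0040. With single arrays left out, the ranges that cross 0 in GMP-Control against LSK-Control were -0.26 to 0.083 for Alas2, -0.42 to 0.39 for Cpox, -0.090 to 0.37 for Fech, -0.12 to 0.24 for Ppox and -0.11 to 0.40 for Urod. For deletion in GMP they were -0.24 to 0.082 for Alas2 and -0.093 to 0.36 for Ppox, and for deletion in LSK cells -0.56 to 0.041 for Cpox. Among genes above the median level Alas2 and Uros had no value, and Alas2 had none without shared suffixes.

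Counts over all genes moved far more than those of the enzymes. Without LSK-Dot K1272, limma called 390 genes for deletion in GMP instead of 26, 5531 in GMP-Control against LSK-Control instead of 1279 higher and 901 lower, 110 in GMP-Dot against LSK-Dot instead of 26, and 15 for the difference instead of 6. Over all alternatives the counts ran from 8 to 7152, 454 to 6351, 0 to 1362 and 0 to 4236 in these comparisons, and from 0 to 446 for deletion in LSK cells. Of the named genes around the enzymes, Mpo, Car1, Car2, Hemgn, Tal1 and Aqp1 were called in 35 of 35 settings, Tspo and Bola3 in 34, Tmem14c in 32 of 34, Epx in 32 of 34, Slc25a39 in 28, Cyba in 28 of 34, Cyc1 in 24, Cyb5b and Nr1d2 in 18 and Hspa9 in 9. Scaling moved the median of all genes by under 0.1.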
